A study of Mus musculus with 4 samples.

Results

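The genes described here encode the T cell receptor complex and the proteins that carry its signal from the membrane to the nucleus. They are 41 genes of receptor chains, surface molecules, kinases, adaptors, enzymes, inhibitors and NFAT factors, taken by symbol from a list that was drawn up with earlier results of these data known, and all 41 were found among the 23356 rows of the deposited gene table. RNA came from T helper 17 (Th17) cells, CD4 T cells that make IL-17, of C57BL/6 mice aged 6 to 8 weeks. Both groups were kept for 48 h in Th17 culture. The vehicle group (2 libraries, with no treatment on their labels) had no addition named, and the SAA1 group (2 libraries) received recombinant murine serum amyloid A1, an acute-phase protein, labelled as 2 ng/ml. The cytokines of the culture, the number of mice behind a library and whether the libraries of a group came from separate cultures are not stated in the labels, so the spread between libraries that the p-values rest on may be technical.

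When a T cell receptor meets its ligand, the kinase Lck phosphorylates the cytoplasmic tails of the CD3 and CD247 chains, and the kinase Zap70 docks there and phosphorylates the adaptors LAT and SLP-76. This scaffold gathers phospholipase C gamma 1, the exchange factors Vav1 and RasGRP1 and kinases of the TEC family, and calcium entry then lets calcineurin move NFAT into the nucleus. Phosphatases, ubiquitin ligases and diacylglycerol kinases oppose each step, and in Th17 cells the strength of this signal is known to bear on how much IL-17 is made.

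Expression is given in FPKM (fragments per kilobase of transcript, normalised to the mapped fragments of the library), for which the table holds 1 value per group, made by the authors from both libraries. Values per library were not given, so whether the groups overlap cannot be said. Each log2 ratio is of SAA1 over vehicle FPKM, and its standard error (SE) is the one implied by the deposited test statistic. A gene was called where the adjusted p of the authors' Cuffdiff test was under 0.05. In bulk RNA, fewer cells of a type and less RNA per cell cannot be told apart. The 8 T cell markers summed to 1371 FPKM with vehicle and 1306 FPKM with SAA1, and all were above 1 FPKM. These 8 are themselves among the 41 genes, and 2 of them (Cd3e and Thy1) were called, so their sum is no independent check of cell make-up. Of 13 myeloid and dendritic markers 1 reached 1 FPKM (summed level 2.89 and 2.30 FPKM, C1qa and C1qb at 0 in both groups), of 7 B cell markers 1 (3.60 and 2.50 FPKM), and of 3 erythroid and 6 stromal markers 0. Of 8 CD8 and natural killer cell markers 3 reached 1 FPKM (39.3 and 37.4 FPKM, mostly Nkg7, with Klrb1c at 0 in both groups).

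Most of the receptor machinery differed little between the groups, and a few members changed. Trat1, the receptor-associated adaptor TRIM, had the largest difference of the 41, a 2.83-fold fall. Cd69, Lcp2, Nfatc1 and Cd3e fell by less, and the kinase gene Txk and the surface gene Thy1 rose. All 41 members were tested by the authors, and 7 of them (17.1%) were called in the authors' deposited table, 2 higher and 5 lower. The same table calls 6.52% of all 11481 tested genes, 3.97% higher and 2.55% lower, and 4.87% of the 8517 tested genes with a mean level at or above that of the least expressed member. At an unadjusted p under 0.05 the count was 10 of 41 members, against 1819 of 11481 tested genes (15.8%).

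Across the whole group the differences were small. The median log2 ratio of the 41 (with 0.1 FPKM added to each value) was -0.09, beside -0.02 for the 10701 genes that reached 1 FPKM in one group or both. A log2 ratio within 0.2 of zero was found for 27 members (65.9%) and for 63.7% of those 10701 genes. Ratios were under zero for 28 members (68.3%) and for 53.9% of those 10701 genes. The FPKM values of the members summed to 4456 with vehicle and 4101 with SAA1, a change of -7.97%, beside 4.05% for the sum over all rows of the table. The highest single value among all rows was 274758 FPKM, so the 4.05% need not describe a typical gene. Of the 34 members not called, 33 had a 95% interval of the log2 ratio (normal, from the implied SE) that lay within a 2-fold change in either direction. The exception was Sla2, whose SE of 0.61 was the widest.

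**Figure D1:**
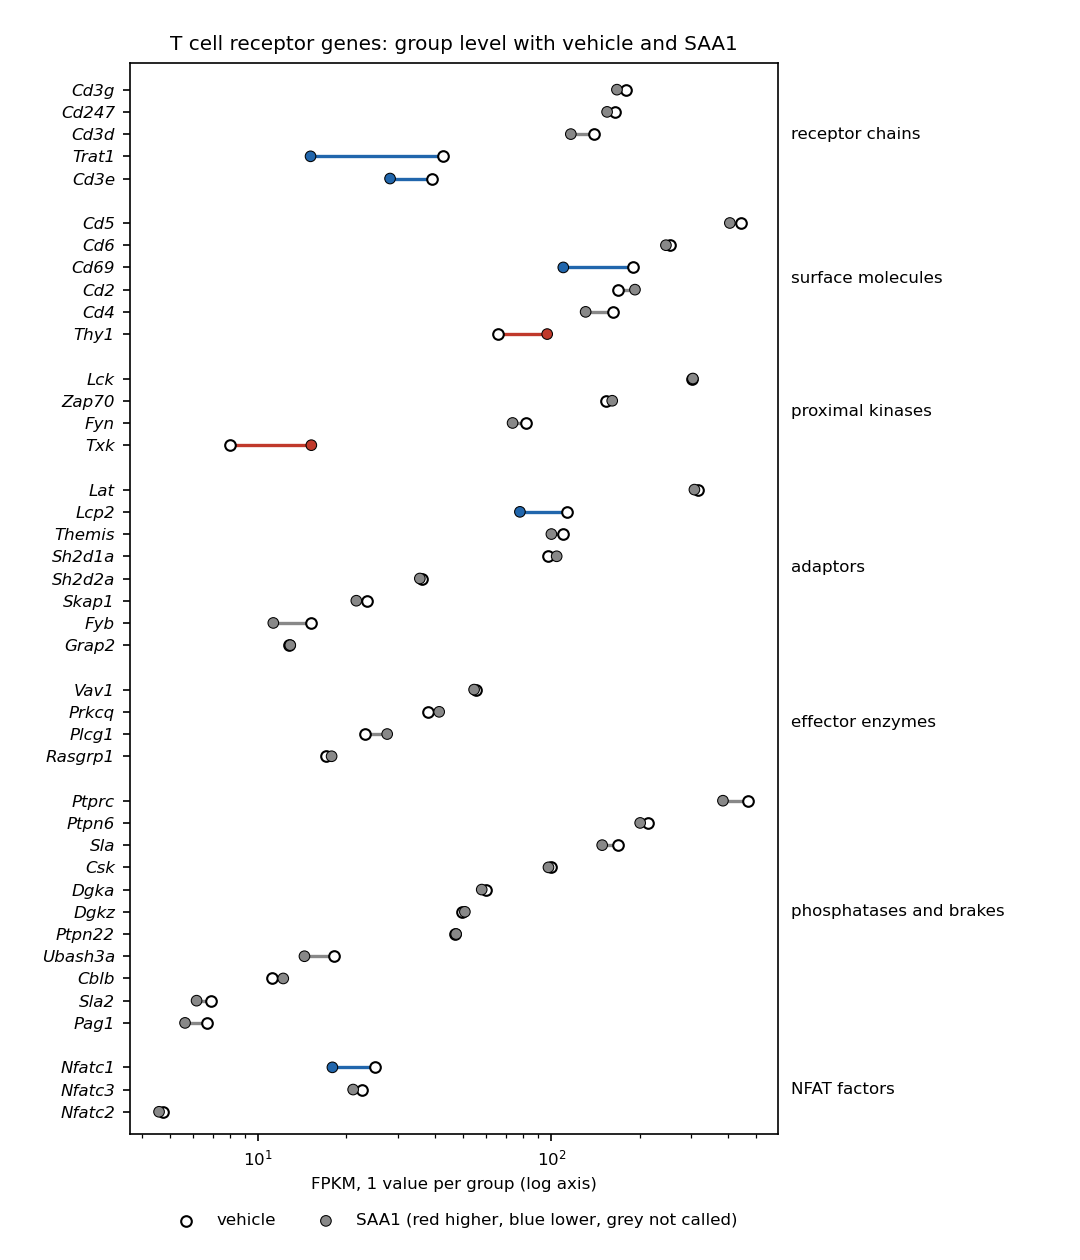
FPKM of the 41 genes on a log axis, grouped by role, with open circles for vehicle and filled circles for SAA1, each the authors' single value for a group; red marks genes called higher, blue genes called lower and grey genes not called. Most pairs of circles nearly touch, from Nfatc2 at under 5 FPKM to Ptprc at 469 FPKM, while Trat1, Cd69 and Txk show the widest gaps.

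The strength of the 7 calls differed. For Trat1 the deposited statistic was -6.01, for Cd69 -3.96 and for Txk 4.06. Those of Lcp2 (-2.66), Nfatc1 (-2.33), Cd3e (-2.17) and Thy1 (2.73) were closer to zero, yet Lcp2 and Thy1 carry a deposited p of 5e-05, the smallest in the authors' deposited table and shared by 300 genes. A normal p of the same statistic would be 0.0078 for Lcp2 and 0.0063 for Thy1. With normal p-values adjusted over all tested genes, 2.13% of tested genes passed, and of the members only Trat1, Cd69 and Txk. A fold of at least 1.5 beside the adjusted p left the same 3, against 4.69% of tested genes. At an adjusted p under 0.01, 5 members (without Cd3e and Nfatc1) passed against 3.80% of tested genes, and under 0.1, 8 members (with Fyb) against 8.81%.

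The promoters of 4 called members are shown, since they are the called genes whose start-site sequence is in the RefSeq table used (build GRCm38.p6) and may be printed here. Each runs 5′ to 3′ on the gene's strand, from 250 bases before the RefSeq start site to 50 bases after it. Capitals mark matches on either strand to the letters GGAAA (the NFAT core), GGAAGT (an ETS site) and TGTGGT (a RUNX site). Matches to the first 2 can share at most 1 letter, on opposite strands. Trat1 lies at chr16:48772013-48772312 on the minus strand, Cd3e at chr9:45009562-45009861 on the minus strand, Lcp2 at chr11:34046678-34046977 on the plus strand and Txk at chr5:72752728-72753027 on the minus strand. The Trat1 start site lies 106 bases, and that of Lcp2 273 bases, outside the locus given in the deposited table. The Trat1 start site is also 41 bases upstream of the outermost GENCODE start of that gene, so most of its last 50 bases lie outside the GENCODE gene.
Trat1: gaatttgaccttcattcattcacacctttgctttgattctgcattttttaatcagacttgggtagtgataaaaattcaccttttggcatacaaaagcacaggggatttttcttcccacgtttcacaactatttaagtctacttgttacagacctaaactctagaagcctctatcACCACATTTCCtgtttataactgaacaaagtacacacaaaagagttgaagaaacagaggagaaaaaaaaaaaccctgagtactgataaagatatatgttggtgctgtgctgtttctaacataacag
Cd3e: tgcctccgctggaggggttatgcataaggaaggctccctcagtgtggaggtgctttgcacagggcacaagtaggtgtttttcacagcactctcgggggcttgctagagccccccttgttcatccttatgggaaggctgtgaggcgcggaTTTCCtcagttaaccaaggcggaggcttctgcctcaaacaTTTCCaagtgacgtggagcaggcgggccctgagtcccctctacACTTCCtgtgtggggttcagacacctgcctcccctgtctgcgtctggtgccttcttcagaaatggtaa
Lcp2: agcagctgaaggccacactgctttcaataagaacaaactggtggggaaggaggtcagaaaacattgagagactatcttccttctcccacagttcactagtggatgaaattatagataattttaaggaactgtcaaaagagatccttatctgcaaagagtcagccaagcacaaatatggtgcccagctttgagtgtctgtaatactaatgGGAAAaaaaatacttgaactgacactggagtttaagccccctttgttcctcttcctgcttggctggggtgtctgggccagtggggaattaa
Txk: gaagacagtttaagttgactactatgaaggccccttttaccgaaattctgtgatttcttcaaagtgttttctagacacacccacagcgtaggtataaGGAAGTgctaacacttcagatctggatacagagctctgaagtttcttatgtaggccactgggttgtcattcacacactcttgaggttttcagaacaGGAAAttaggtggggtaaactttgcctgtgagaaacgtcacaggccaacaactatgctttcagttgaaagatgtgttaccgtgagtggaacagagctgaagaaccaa

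In these windows GGAAA was found 1 time each at Trat1, Lcp2 and Txk and 2 times at Cd3e. GGAAGT was found 1 time each at Cd3e and Txk, and TGTGGT 1 time, at Trat1, where its reverse complement touches a match to the NFAT core. No window held TGANTCA (an AP-1 site) or TTCNNNGAA (a STAT site). Among 32851 promoter windows of the same length, GGAAA was in 61.3%, GGAAGT in 23.8%, TGTGGT in 16.8%, TTCNNNGAA in 8.30% and TGANTCA in 7.81%. Of the 30 members with a window, 21 held GGAAA, 12 GGAAGT, 5 TGTGGT, 3 TTCNNNGAA and 0 TGANTCA. Each member had 1 window, at the start site nearest its deposited locus. The 32851 windows cover all start sites, so a gene with several counts more than once. A match is a description of the letters only.

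All 5 genes of the receptor complex had lower values with SAA1, and 2 of them passed the test. Beside these, 53.9% of the genes that reached 1 FPKM had ratios under zero, and 2.55% of all tested genes were called lower. With normal p-values of the deposited statistic, Trat1 was still called and Cd3e was not. Trat1 was at 42.7 FPKM with vehicle and 15.1 FPKM with SAA1 (log2 ratio -1.50 ± 0.25 SE), with an adjusted Cuffdiff p of 0.0019 in the authors' deposited table. Its protein, TRIM, is a membrane adaptor bound to the receptor, with tyrosines that recruit phosphatidylinositol 3-kinase. Among the 293 genes called lower it ranked 14 by size of the ratio. Cd3e, whose product pairs with both CD3 gamma and CD3 delta in the receptor, was at 39.1 and 28.2 FPKM (-0.47 ± 0.22, adjusted Cuffdiff p 0.039 in the authors' deposited table). It was the least expressed of the CD3 genes in both groups. On mm10 the deposited loci, which run over exons and introns alike, place Trat1 on chromosome 16 from 48734690 to 48771956 and Cd3e on chromosome 9 from 44998743 to 45009590.

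The other chains did not pass. Cd3g, the most abundant of the 5, was at 180 and 167 FPKM (-0.11 ± 0.20, adjusted Cuffdiff p 0.84 in the authors' deposited table). Cd3d was at 140.0 and 117 FPKM (-0.27 ± 0.20) and Cd247, the zeta chain with most of the signalling motifs of the complex, at 165 and 155 FPKM (-0.09 ± 0.23). Their adjusted p-values in the authors' deposited table were 0.35 and 0.91. The 3 CD3 genes are neighbours on chromosome 9. By GENCODE positions, 1354 bases separate Cd3g from Cd3d, which point away from each other, and 11400 bases separate Cd3d from Cd3e. Cd3e shares exon sequence with an annotated antisense gene, and whether reads of the 2 were told apart is unknown because the strand setting is not given. Other members, Fyb and Ptpn6 among them, also share exon sequence with another annotated gene.

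Of 6 coreceptor and surface genes, 1 rose, 1 fell and 4 did not pass, beside 3.97% of all tested genes called higher and 2.55% lower. Cd69, an early activation antigen that holds lymphocytes in tissue by acting on S1P receptor 1, was at 190.1 FPKM with vehicle and 109.8 FPKM with SAA1 (log2 ratio -0.79 ± 0.20, a 1.73-fold fall). Its level went from above that of Cd4 to below it. Thy1, the glycolipid-anchored glycoprotein that marks mouse T cells, was at 66.0 and 96.8 FPKM (0.55 ± 0.20, a 1.47-fold rise). Cd69 lies on chromosome 6 from 129267325 to 129275369 and Thy1 on chromosome 9 from 44043384 to 44048579 (mm10). Both had an adjusted Cuffdiff p of 0.0019 in the authors' deposited table.

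Cd4, the coreceptor that brings Lck to the receptor, was at 162 and 131 FPKM (-0.31 ± 0.20), with an unadjusted p of 0.030 and an adjusted Cuffdiff p of 0.23 in the authors' deposited table. Cd5, an inhibitory receptor that tracks receptor signal strength and the highest of this set, was at 443 and 406 FPKM (-0.13 ± 0.20). Its relative Cd6 was at 253 and 246 FPKM, and Cd2, an adhesion receptor, at 169 and 193 FPKM. The adjusted p-values of these 3 in the authors' deposited table lay between 0.60 (Cd2) and 0.97 (Cd6).

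**Figure D2:**
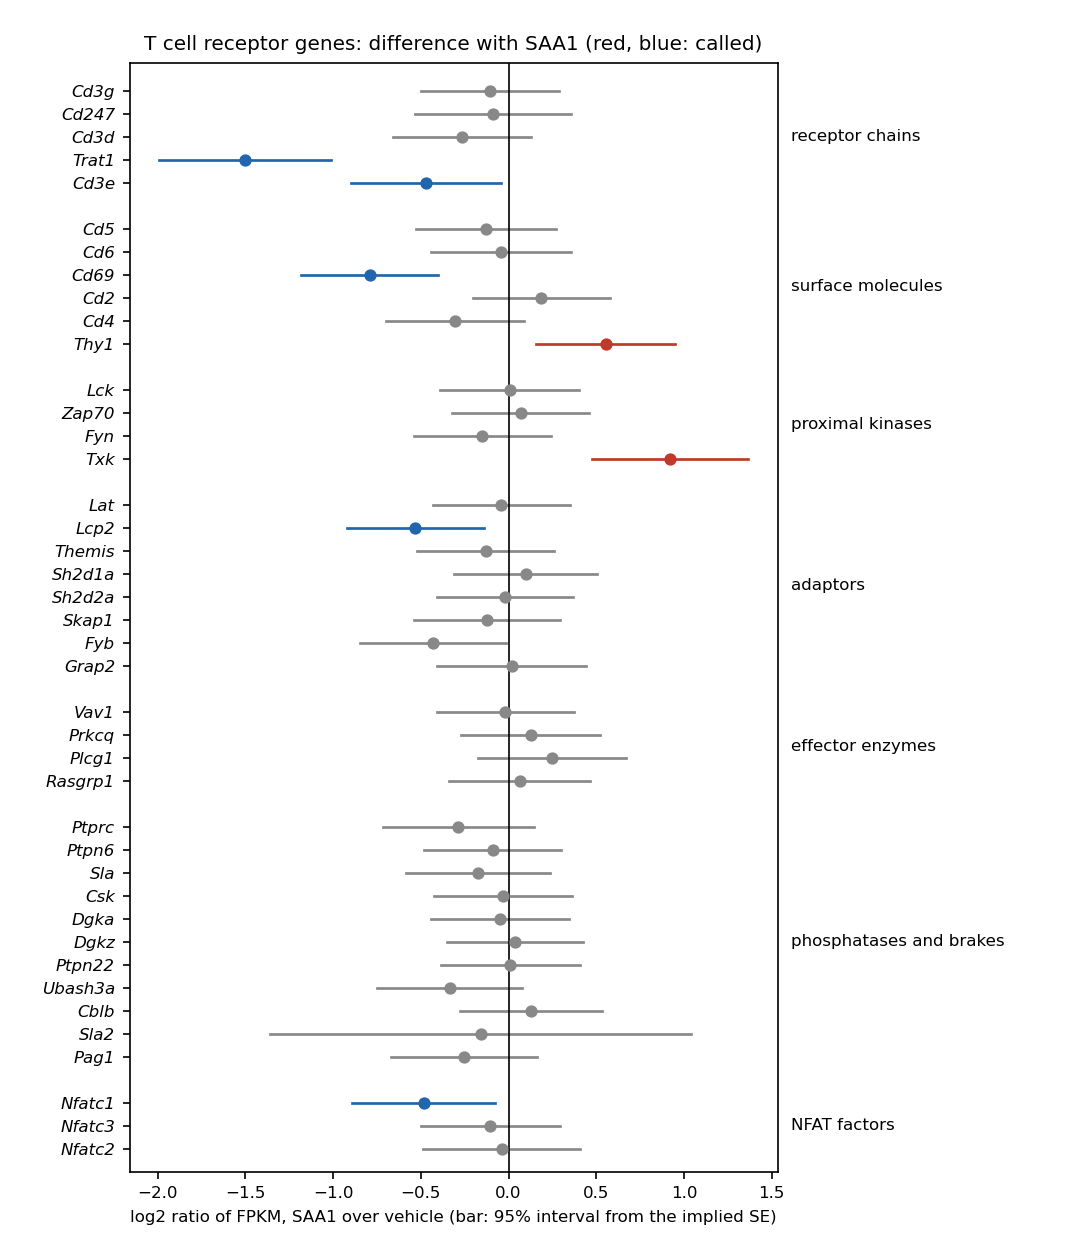
Log2 ratio of SAA1 over vehicle FPKM for each of the 41 genes by role, with 95% intervals from the implied SE; red and blue mark genes called higher and lower. The 7 called genes are the ones whose intervals lie on 1 side of zero, apart from the uncalled Fyb (-0.85 to -0.02), and the interval of Trat1 (-1.99 to -1.01) lies farthest from it.

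The kinase genes that start the signal, Lck and Zap70, did not pass the test. Lck was at 303 and 304 FPKM (log2 ratio 0.01 ± 0.20, 95% interval -0.39 to 0.40), and Zap70 at 154 and 161 FPKM (0.07 ± 0.20, -0.32 to 0.46). Fyn, the second Src-family kinase of T cells, was at 81.8 and 73.7 FPKM (-0.15 ± 0.20). Their adjusted p-values in the authors' deposited table were 0.99, 0.93 and 0.72.

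Txk, a TEC-family kinase also called Rlk that acts on phospholipase C gamma 1, was the member with the largest increase. It was at 8.02 FPKM with vehicle and 15.2 FPKM with SAA1 (log2 ratio 0.92 ± 0.23, a 1.89-fold rise, adjusted Cuffdiff p 0.0019 in the authors' deposited table). Even so it remained far below Lck, which was 37.7 times its FPKM with vehicle and 20.02 times with SAA1.

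The next gene along the chromosome is a second kinase of that family. Tec, which is not among the 41, was at 2.36 and 7.05 FPKM (log2 ratio 1.58 ± 0.27, a 2.98-fold rise, adjusted Cuffdiff p 0.0019 in the authors' deposited table). By the table's mm10 loci, Txk spans chromosome 5 from 72695978 to 72752773 and Tec from 72755723 to 72868448, 2.95 kb apart.

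The genes around Txk were then read in order, a look taken after the values were seen and therefore described without a test. On its other side, Nipal1, a gene of the NIPA-like magnesium transporter family, was at 0.748 and 4.94 FPKM (log2 ratio 2.72 ± 0.33), and Nfxl1, farther out, at 9.02 and 12.5 FPKM (0.47 ± 0.22). The adjusted p-values in the authors' deposited table were 0.0019 and 0.031. Past these, the next tested gene on each side, Atp10d (0.15 ± 0.23) and Slain2 (-0.16 ± 0.20), was not called. Across all tested genes the called share was 6.52%. Of the 4 other tested genes within 250 kb of Txk, 3 were called, all higher. The calls of neighbours other than Tec were not checked with normal p-values, and Nipal1 was under 1 FPKM with vehicle. For the other 6 called members the same window held 25 tested genes, of which 2 were called, both beside Cd3e. These were Mpzl2 (0.731 and 2.97 FPKM) and Amica1 (1.21 and 2.45 FPKM), which rose while Cd3e fell.

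**Figure D3:**
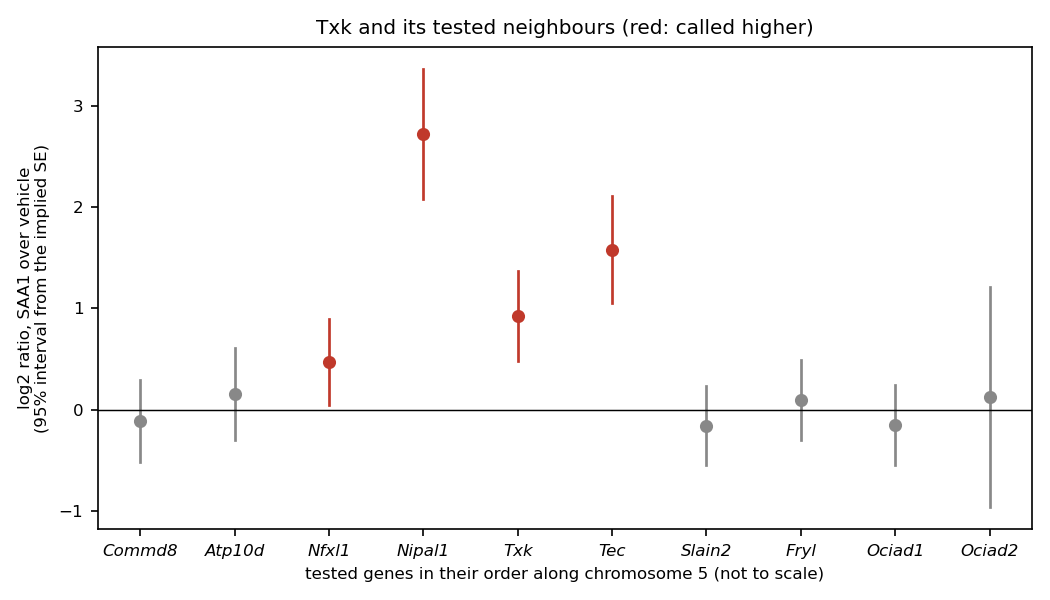
Log2 ratio of SAA1 over vehicle FPKM for Txk and the tested genes around it, in chromosome order and not to scale, with 95% intervals from the implied SE; red marks genes called higher. The 4 consecutive tested genes from Nfxl1 to Tec lie above zero, and the genes on both sides straddle it.

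Of 8 adaptor genes, 1 fell and 7 did not pass, beside 2.55% of all tested genes called lower. Lcp2, which encodes SLP-76, the scaffold that joins the LAT complex to Vav1 and the TEC kinases, was at 113 FPKM with vehicle and 78.1 FPKM with SAA1 (log2 ratio -0.53 ± 0.20, a 1.45-fold fall, adjusted Cuffdiff p 0.0019 in the authors' deposited table). It lies on chromosome 11 from 34047201 to 34092280 (mm10) and shares exon sequence with a gene annotated on the opposite strand. Lat, its partner and the most abundant of the set, was at 316 and 308 FPKM (-0.04 ± 0.20, adjusted Cuffdiff p 0.97 in the authors' deposited table). Grap2, whose product Gads bridges LAT and SLP-76, was at 12.7 and 12.9 FPKM (0.02 ± 0.22), so of this trio only Lcp2 passed, a difference between the genes that was not tested.

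Fyb, the adaptor ADAP that binds SLP-76 and links the receptor to integrins, was at 15.2 and 11.3 FPKM (-0.43 ± 0.21). Its unadjusted p was 0.0043 and its adjusted Cuffdiff p 0.059 in the authors' deposited table, just over the threshold. Skap1, the ADAP partner, was at 23.6 and 21.6 FPKM. Themis, a regulator of signal strength in thymocytes, was at 109.5 and 100.02 FPKM, Sh2d1a (the adaptor SAP of SLAM-family receptors) at 97.4 and 104 FPKM, and Sh2d2a (the adaptor TSAd) at 36.1 and 35.6 FPKM. These 4 had log2 ratios between -0.13 and 0.10.

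None of the 4 genes for effector enzymes passed by Cuffdiff, per the authors' deposited table, and 0 had an unadjusted p under 0.05. Across all tested genes these shares were 6.52% and 15.8%. Plcg1, the phospholipase that makes the second messengers for calcium and diacylglycerol, was at 23.2 and 27.5 FPKM (log2 ratio 0.25 ± 0.22, adjusted Cuffdiff p 0.45 in the authors' deposited table), in a locus shared with Zhx3. Vav1, the exchange factor for Rac and the most abundant of them, was at 55.2 and 54.5 FPKM (-0.02 ± 0.20). Rasgrp1, which activates Ras on diacylglycerol, was at 17.03 and 17.8 FPKM, and Prkcq, the kinase that leads to NF-kB, at 38.0 and 41.4 FPKM. The ratios of 3 of the 4 were over zero.

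The genes that oppose or tune the signal gave no call among 11, with 1 unadjusted p under 0.05 in the authors' deposited table. That gene was Ubash3a, a regulator that binds ubiquitin and dampens signalling, at 18.1 and 14.4 FPKM (log2 ratio -0.34 ± 0.21, unadjusted p 0.022, adjusted Cuffdiff p 0.19 in the authors' deposited table). Ptprc, the phosphatase CD45, which activates Lck and had the highest vehicle value of all 41 genes, was at 469 and 385 FPKM (-0.29 ± 0.22, 95% interval -0.72 to 0.15). Ptpn6, the phosphatase SHP-1, was at 214 and 201 FPKM.

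The kinase Csk, which turns Lck off, was at 99.9 and 97.8 FPKM (-0.03 ± 0.20), its partner phosphatase Ptpn22 at 47.02 and 47.3 FPKM (0.01 ± 0.20), and its membrane anchor Pag1 at 6.71 and 5.63 FPKM (-0.25 ± 0.21). Of the diacylglycerol kinases, Dgka was at 59.9 and 57.9 FPKM, and Dgkz at 49.4 and 50.7 FPKM. Cblb, a ubiquitin ligase that restrains activation, was at 11.1 and 12.2 FPKM. Sla, an adaptor that lowers receptor levels, was at 168 and 149 FPKM, and the related Sla2 at 6.88 and 6.16 FPKM. Sla, Sla2 and Dgka, like Cd247 and Plcg1 above, share a locus in the deposited table with another gene row, so their values are uncertain.

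Of the 3 NFAT genes, Nfatc1 fell and the others did not pass, beside 2.55% of all tested genes called lower. Nfatc1, the member whose transcription NFAT itself induces on activation, was at 25.1 FPKM with vehicle and 17.9 FPKM with SAA1 (log2 ratio -0.48 ± 0.21, a 1.40-fold fall, adjusted Cuffdiff p 0.019 in the authors' deposited table). Nfatc3 was at 22.7 and 21.1 FPKM (-0.10 ± 0.20) and Nfatc2 at 4.72 and 4.59 FPKM (-0.04 ± 0.23), with adjusted p-values of 0.85 and 0.97 in the authors' deposited table. Nfatc1 lies on chromosome 18 from 80606205 to 80713071 (mm10). Among the 3, Nfatc1 had the highest FPKM with vehicle and Nfatc3 the highest with SAA1.

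**Figure D4:**
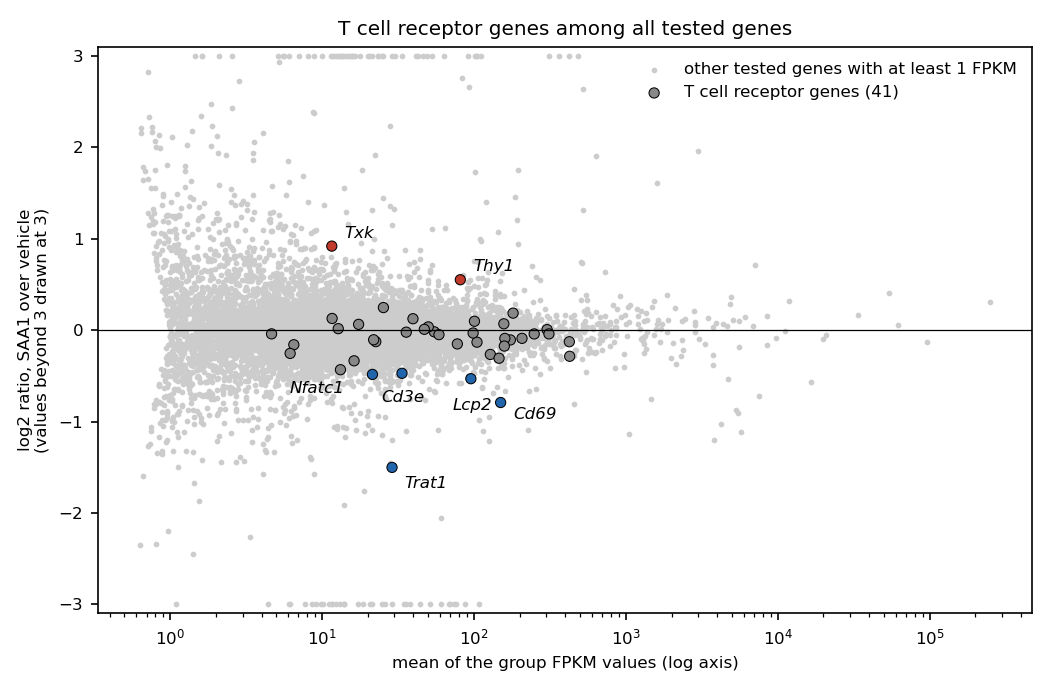
Log2 ratio against mean FPKM (log axis) for all tested genes that reached 1 FPKM, in grey, with the 41 genes outlined and the called ones in red (higher) or blue (lower) and named; values beyond 3 are drawn at 3. Trat1 lies outside the main band of genes at its level and the other members inside it or at its edge.

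A further list of 76 pathway genes that are not among the 41 was read in the same way, and 75 are in the table. Of 73 tested, 3 were called higher and 2 lower in the authors' deposited table (6.85%, beside 6.52% of all tested genes), and the median log2 ratio of the 72 with at least 1 FPKM was -0.01. Tec and Rasa3 rose, and so did Dok1, an adaptor that restrains Ras. Rasa3, a GTPase-activating protein that turns off Ras and Rap1, was at 7.26 and 12.7 FPKM (0.81 ± 0.21, adjusted Cuffdiff p 0.0019 in the authors' deposited table), and Dok1 at 16.1 and 22.8 FPKM (0.50 ± 0.22, 0.023). Tespa1, a regulator of receptor-driven calcium signals, fell from 27.4 to 19.7 FPKM (-0.48 ± 0.21, 0.036). With normal p-values of the deposited statistics, Tec and Rasa3 were still called, and Dok1 and Tespa1 were not.

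By branch, the TEC kinase and adaptor list had 1 gene higher and 1 lower of 13 tested, and the Ras and phosphatidylinositol 3-kinase list 1 and 1 of 14. Across all tested genes 6.52% were called, 3.97% higher and 2.55% lower. The further phosphatases and brakes had 1 higher and 0 lower of 13, with Ptpn2, the most abundant, at 85.3 and 81.4 FPKM. The CARMA1 module (7 tested, Prkch at 125 and 128 FPKM), the calcium entry and calcineurin genes (14 tested) and the cytoskeletal effectors (12 tested, Coro1a at 700.0 and 636 FPKM) had 0 calls by Cuffdiff in the authors' deposited table. Their unadjusted p-values under 0.05 numbered 2 of 7, 3 of 14 and 1 of 12, beside 1819 of 11481 tested genes (15.8%). Map2k1, the most abundant of the Ras branch, was at 82.9 and 89.5 FPKM in a locus shared with Uchl4.

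**Figure D5:**
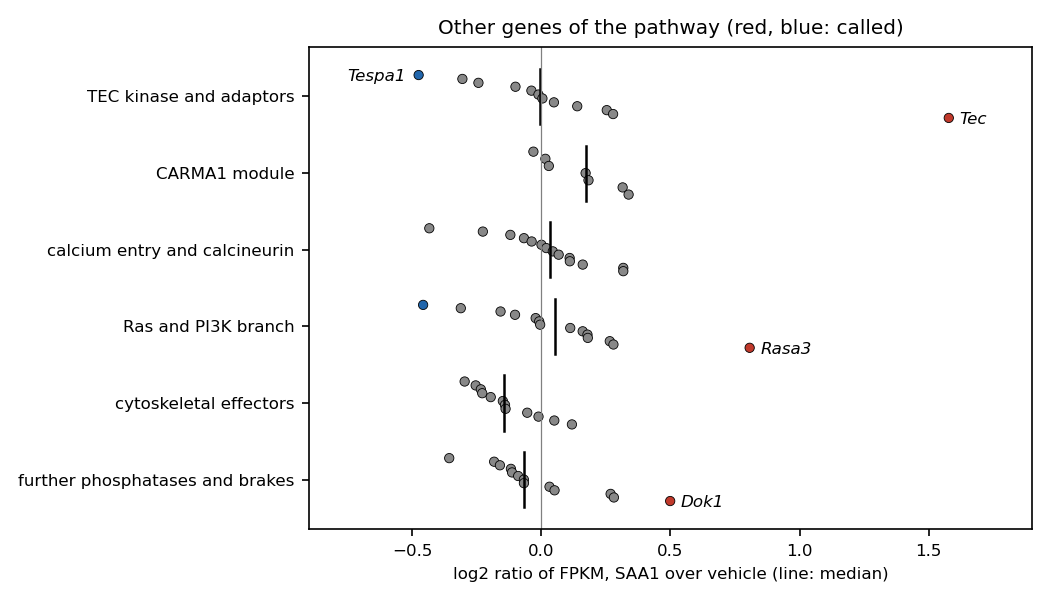
Log2 ratio of SAA1 over vehicle FPKM for the 72 other pathway genes with at least 1 FPKM, by branch, with a line at each branch's median; red and blue mark genes called higher and lower. Tec and Rasa3 lie apart from genes that otherwise range from -0.48 to 0.50.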

How the data were processed

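RNA of 4 Th17 libraries, 2 given vehicle and 2 given SAA1 by their titles, was sequenced, per the labels' protocols, after a TruSeq preparation. The authors deposited a table in Cuffdiff's layout, per the file headers, with an FPKM value per group, a test statistic (a score: log ratio over its standard error) and a p-value and q-value per gene. TopHat2, Cuffdiff, mm9 and mm10 are named in the submitters' processing notes. Versions, the strand setting and scaling between libraries were not given in the sources used here, and depth is unknown.

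Log2 ratios were recomputed from FPKM and SE taken as ratio over statistic (Python 3.11.15, pandas 2.3.3, scipy 1.17.1). The Benjamini-Hochberg adjustment of p over 11481 tested genes was checked against the deposited q-value (largest gap 5.23e-07). The design had foreseen limma or a count test for values per library. With group values the authors' deposited test across all genes was used. Calculations were tested on simulated data, drawn with the implied SE and called by normal p-values. The deposited Cuffdiff p-values behind the calls were not tested in this way. All 41 loci overlap the gene's GENCODE M21 (GRCm38, which is mm10) position. Coordinates count from 1.

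Members, roles and the 76 further genes were chosen with earlier results of these data known. By rule, values were given in full for members called or with an unadjusted p under 0.05, and for called genes of the further list. The rule also named the most abundant member of each role and branch, but Ptprc, Vav1 and those of the branches lack some values. Some genes that this rule names are not reported here. The neighbours of Txk and Cd3e and the motifs were chosen after values were seen.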

Additional observations from a re-analysis of the deposited data

How the results depend on the processing

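No paired analysis was possible because the table gives 1 value per group. Omission of each replicate and the replicate block were not run for the same reason. The 2 members called higher became 1 with a fold of at least 1.5, 1 with normal p-values of the deposited statistic and 1 with ratios centred on the median of expressed genes (-0.02), which also uses normal p-values. Those 3 settings called 3.07%, 1.33% and 1.42% of all tested genes higher, beside 3.97% in the main setting. The 5 called lower became 2 under each of these 3 settings, and 3 at an adjusted p under 0.01. The 2 further pathway genes called lower by Cuffdiff became 0 under each of these 4 settings. There, 0.706% (centred) to 1.63% (fold minimum) of all tested genes were called lower. Of the 73 tested further genes, 6 had a lower value and an unadjusted p under 0.05, beside 875 of all 11481 tested genes. The deposited p was below the normal p of its statistic for 98.5% of tested genes, and for 626 of the 749 called. The cause was not tested. All other settings left these counts within 1.5 times, and the members' median log2 ratio stayed between -0.11 (mean over members) and -0.07 (rows sharing a locus left out, or centred).

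For single genes, 46 of 60 adjusted p-values stayed on their side of 0.05 and 14 did not, each with normal p-values. With centring, Cd3e had 0.53, Lcp2 0.25, Nfatc1 0.43 and Thy1 0.14. Unknown depth and 1 value per group limit what can be said of small differences.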

Other observations

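The levels of the genes relative to each other were read as a description, without a test. The order of the 41 members by FPKM was nearly the same in both groups, with 33 members within 2 places of their vehicle rank. Trat1 went from place 25 to 34 and Cd69 from 7 to 14, while Txk went from 38 to 33 and Zap70 from 13 to 9. Trat1 made up 7.54% of the FPKM of the 5 receptor genes with vehicle and 3.13% with SAA1. Cd3g exceeded Cd3e 4.61 times with vehicle and 5.94 times with SAA1, and Cd247 exceeded it 4.22 and 5.50 times. Nfatc1 made up 47.8% of the FPKM of the 3 NFAT genes with vehicle and 41.1% with SAA1.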
